A study of Mus musculus with 56 samples.

Results

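Total RNA from the gastrocnemius muscle of male mice was compared between 7 knockouts of HuR and 7 controls, 14 of the 56 libraries of the series. The libraries were chosen by their column codes in the count table, with the prefix M for male and the endings ET and WT, and each was placed in its group by the sample labels. The other libraries are 14 of total RNA from females and 28 of RNA bound to tagged ribosomes. HuR, the product of Elavl1, is an RNA-binding protein of the Elav family that binds AU-rich stretches of messenger RNA and is known to affect their decay, splicing and translation. In skeletal muscle it is known for roles in the differentiation of myoblasts and in the metabolism of adult fibres.

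The knockouts were male mice of 20 to 22 weeks with a floxed Elavl1 gene and Cre recombinase driven by the Mlc1f promoter, which is active in muscle fibres and most of all in fast ones. The controls were male mice of the same age that the labels call control, with no further allele named. Both groups carried the ribosomal protein L10A with a GFP tag, switched on through Cre. RNA was prepared with Trizol from the whole homogenate, so it also came from vessels, blood, nerve, tendon and connective tissue, in which the promoter is not expected to be active. In such bulk RNA fewer cells of a type and less RNA per cell cannot be told apart. The labels number the mice, with knockouts 1, 2, 6, 10, 12, 13 and 14 and controls 20, 21, 22, 23, 25, 26 and 27. The labels do not give litter, batch or the day of dissection.

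Libraries held 2629384 to 5848058 gene counts in knockouts (median 3253852) and 2427655 to 5144575 in controls (median 4497910), each count a read of a transcript's 3′ end. Levels of single genes are given as CPM, in which each library's counts are scaled to a common total by the TMM method. Summed levels of gene lists are CPM of each library's own gene counts, without the TMM factor. They therefore depend more on the make-up of a library. The muscle label held, since transcripts of the muscle fibre list (Ckm, Acta1, Mb and others) summed to 55515 to 74847 CPM in knockouts, against 62888 to 104480.2 CPM in controls, where controls 25 to 27 were highest. Controls 25, 26 and 27 stood apart: reads outside annotated genes made up 19.6, 23.4 and 20.6% of their reads, against 9.78 to 13.9% in knockouts and 12.4 to 14.7% in the other 4 controls. Over all 14 libraries the knockouts had a mean share 5.19 percentage points below that of controls (two-sided exact permutation test over all arrangements of the 14 libraries, p = 0.00641, adjusted p = 0.0192 over 6 measures). The first principal component, with 37.2% of the variance, set these 3 controls against the other 11 libraries. Reads not uniquely aligned made up 16.3 to 18.8% in knockouts, against 14.0 to 17.3% in controls. Their mean share was 1.75 percentage points higher in knockouts (two-sided exact permutation test, p = 0.0128, adjusted p = 0.0256 over 6 measures). Knockout 6 held kidney transcripts and knockout 14 held more liver transcripts than any other of these 14 libraries. Knockouts 1 and 12 had the most mitochondrially encoded mRNA, 57468 and 56737 CPM, where the other knockouts held 30971 to 43109 CPM and the controls 31358 to 37256 CPM.

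**Figure D1:**
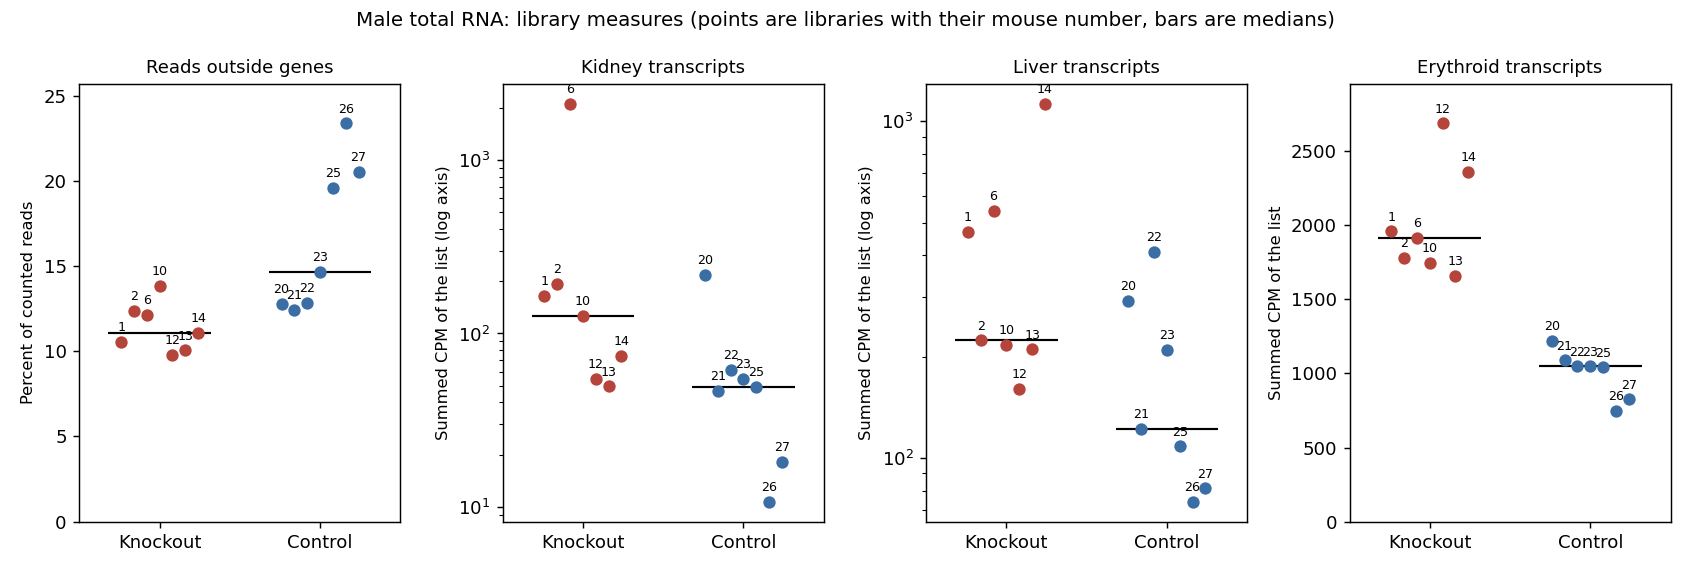
Share of reads outside annotated genes (percent, linear axis) and summed level of the kidney, liver and erythroid lists (CPM, log axes for kidney and liver) in each male total RNA library, with knockouts in red and controls in blue. Points carry the mouse number and bars are group medians. Controls 25 to 27 stand above 19% of reads outside genes, knockout 6 at 2116 CPM of kidney transcripts, knockout 14 at 1128 CPM of liver transcripts, and all 7 knockouts lie above all 7 controls for erythroid transcripts.

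Elavl1 itself did not separate the groups. It stood at 51.4 to 97.6 CPM in knockouts (median 83.7), against 71.4 to 122 CPM in controls (median 86), and the ranges overlapped. Knockout 2 was lowest and apart from the other knockouts, which held 82.3 to 97.6 CPM. The log2 fold change was −0.14 ± 0.13 (standard error, as after every ± beside a log2 fold change below), with an adjusted p of 0.477 by the quasi-likelihood test of edgeR. Libraries read the 3′ end and the labels do not say which exons are floxed, so it is not known whether these reads fall within the floxed region, and Elavl1 counts cannot check the labels. Cells other than fibres also express Elavl1. The groups are named as labelled. The neuronal paralogs Elavl2, Elavl3 and Elavl4 held 48, 39 and 39 counts over the 14 libraries and were not tested. Of the 11 tested genes of the list of Elav and AU-rich element binding proteins, 0 rose and 3 fell (27.3%, against 7.36% of all genes tested). The falls were 0 without controls 25 to 27 and 4 without controls 20 to 23. In male RNA bound to tagged ribosomes, where 4.87% of all genes fell, 0 of 10 tested members of the list did. In total RNA of females, where 4.7% fell, 0 of 11 did. The summed level of the list was 999 to 1163 CPM in knockouts, against 1193 to 1297 CPM in controls, with no overlap. This was not particular to the list. The sum of clock genes was 1894 to 2216 against 2408 to 2728 CPM, and that of splicing regulators 4307 to 4868 against 5188 to 5586 CPM. These lists were written with earlier results of these data known.

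Of 12860 genes tested, 1824 were called at an adjusted p under 0.05, which is 14.2% of them. Among these, 878 rose (6.83%) and 946 fell (7.36%) in knockouts, and the median log2 fold change of all genes tested was 0.0015. A fold change of at least 1.5 was reached by 419 of the rises and 343 of the falls. In 136 genes (1.06%) all 7 knockouts lay above all 7 controls, and in 137 genes (1.07%) all 7 lay below. The number of calls turned on which controls were used. Without controls 25 to 27, 170 genes rose (1.27%) and 226 fell (1.69%). Without controls 20 to 23, 1900 rose (14.1%) and 1924 fell (14.3%). Genes called in the same direction with all libraries and with either set of controls numbered 103 rises (0.801%) and 118 falls (0.918%). Leaving out 1 library gave 1134 calls without control 27, 1167 without control 26 and 1214 without knockout 14, and 1232 to 2127 without any other. Whether the make-up of controls 25 to 27 accounts for the difference was not tested. Counts for the gene lists below are to be read beside these shares of all genes. With all libraries 6.83% rose and 7.36% fell. The shares were 1.27 and 1.69% without controls 25 to 27, and 14.1 and 14.3% without controls 20 to 23. No list was tested as a set.

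The rises of lowest p were called with either set of controls. Ndufaf5, an assembly factor of respiratory complex I, stood at 89.2 to 135 CPM in knockouts (median 126), against 39.6 to 63.5 CPM in controls (median 55.6), a log2 fold change of 1.12 ± 0.13 (adjusted p = 2.18e-06). Every knockout lay above every control, and the fold change was 0.95 without controls 25 to 27 (adjusted p = 0.000278) and 1.44 without controls 20 to 23 (adjusted p = 8.2e-06). Gamt, the methyltransferase of the last step of creatine synthesis, stood at 11.3 to 28.1 CPM in knockouts (median 16.2), against 4.94 to 7.66 CPM in controls (median 5.59), a log2 fold change of 1.62 ± 0.21 (adjusted p = 1.55e-05). Knockouts 13 and 14 were highest and knockout 1 lowest, still above all controls. No other member of their lists was called: of 14 complex I assembly factors and of 6 creatine genes tested, Ndufaf5 and Gamt alone passed, while the creatine kinase gene Ckb stood at 0.07 (adjusted p = 0.787) and the creatine transporter gene Slc6a8 at 0.11 (adjusted p = 0.399). C1qtnf12, which encodes the secreted protein adipolin, stood at 17.5 to 25.3 CPM in knockouts (median 21.9), against 6.27 to 12.2 CPM in controls (median 9.27), a log2 fold change of 1.14 ± 0.15 (adjusted p = 1.55e-05). Fgfbp1, which encodes a carrier of fibroblast growth factors, stood at 12.5 to 40.4 CPM in knockouts (median 22.7), against 4.14 to 10.1 CPM in controls (median 6.95), a log2 fold change of 1.77 ± 0.25 (adjusted p = 4.77e-05). Both groups stayed apart for these 2 genes as well, with knockout 13 highest for Fgfbp1.

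Further rises included an adhesion gene, a junction enzyme and counts of mitochondrial tRNA genes. Cntnap2, an adhesion protein of the neurexin family, stood at 18.6 to 38 CPM in knockouts (median 31.2), against 8.0 to 15.2 CPM in controls (median 10.2), a log2 fold change of 1.38 ± 0.24 (adjusted p = 0.000568), and Sugct, a CoA transferase of glutarate breakdown, at 12.4 to 24.5 CPM in knockouts (median 17.7), against 1.84 to 8.23 CPM in controls (median 7.63), a log2 fold change of 1.4 ± 0.22 (adjusted p = 0.000146). All knockouts were above all controls for both, and control 26 was lowest for Sugct at 1.84 CPM. Ache, the acetylcholinesterase of the neuromuscular junction, stood at 5.05 to 15.9 CPM in knockouts (median 10.9), against 2.3 to 6.62 CPM in controls (median 4.35), a log2 fold change of 1.34 ± 0.26 (adjusted p = 0.00136). Here knockouts 1 and 2, at 5.05 and 5.84 CPM, lay within the range of controls, whose highest was control 27 at 6.62 CPM. The mitochondrial valine tRNA mt-Tv stood at 210.1 to 379 CPM in knockouts (median 319), against 103 to 190.3 CPM in controls (median 144), a log2 fold change of 1.09 ± 0.14 (adjusted p = 1.55e-05), and the leucine tRNA mt-Tl2 at 18.7 to 36 CPM in knockouts (median 22.8), against 9.2 to 15 CPM in controls (median 10.6), a log2 fold change of 1.25 ± 0.23 (adjusted p = 0.00104). Neither overlapped between groups. Whether the reads counted for these 2 genes came from the tRNAs themselves was not tested. Tpm3, a tropomyosin of slow fibres and of non-muscle cells, stood at 155 to 306 CPM in knockouts (median 268), against 142 to 169 CPM in controls (median 154), a log2 fold change of 0.68 ± 0.14 (adjusted p = 0.00195), with knockout 12 at 155 CPM among the controls. The transcription factor gene Foxo6 stood at 5.44 to 28.6 CPM in knockouts (median 13.7), against 5.02 to 8.39 CPM in controls (median 5.9), a log2 fold change of 1.27 ± 0.26 (adjusted p = 0.00245). Knockout 2 was far above the rest at 28.6 CPM, and knockout 1 was inside the range of controls. Cyp26b1, a retinoic acid hydroxylase, rose (1.99 ± 0.59, adjusted p = 0.0238), but it was not called without knockout 2 (1.29, adjusted p = 0.117), which held 419.6 CPM, nor without control 27 (1.89, adjusted p = 0.0535), without controls 25 to 27 (2.49, adjusted p = 0.0514) or without controls 20 to 23 (1.46, adjusted p = 0.184).

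The falls of lowest p included several genes for membrane proteins. Tmem37, which encodes a membrane protein related to calcium channel gamma subunits, stood at 37.8 to 57.8 CPM in knockouts (median 44.1), against 80.5 to 141 CPM in controls (median 105), a log2 fold change of −1.15 ± 0.14 (adjusted p = 1.01e-05). Htra4, a secreted serine protease, stood at 6.26 to 20.6 CPM in knockouts (median 15), against 25.3 to 50.1 CPM in controls (median 39.1), a log2 fold change of −1.53 ± 0.20 (adjusted p = 1.55e-05), and Mchr1, a receptor of melanin-concentrating hormone, at 3.98 to 9.76 CPM in knockouts (median 6.24), against 15.3 to 30.1 CPM in controls (median 21), a log2 fold change of −1.6 ± 0.22 (adjusted p = 4.12e-05). The groups did not overlap for any of the 3, and knockout 6 was lowest for Htra4 and Mchr1. Neto2, an auxiliary subunit of kainate receptors, stood at 13.1 to 30.3 CPM in knockouts (median 22.9), against 38.6 to 85.8 CPM in controls (median 47.4), a log2 fold change of −1.34 ± 0.21 (adjusted p = 0.000146). Controls 25 to 27 were its highest, 73.6 to 85.8 CPM, and controls 20 to 23 held 38.6 to 47.4 CPM, still above all knockouts. The zinc transporter gene Slc30a2 stood at 4.08 to 10.9 CPM in knockouts (median 8.53), against 13.2 to 27.5 CPM in controls (median 21.5), a log2 fold change of −1.33 ± 0.26 (adjusted p = 0.00154), the lipid-binding C2 domain gene C2cd2 at 169.8 to 225 CPM in knockouts (median 191), against 274 to 389.7 CPM in controls (median 359), a log2 fold change of −0.76 ± 0.10 (adjusted p = 2.55e-05), and Pigo of glycolipid anchor synthesis at 3.74 to 5.59 CPM in knockouts (median 4.66), against 7.83 to 11.5 CPM in controls (median 9.51), a log2 fold change of −1.07 ± 0.15 (adjusted p = 3.23e-05). None of these 3 overlapped between groups either. Tanc1, a scaffold protein gene, stood at 35.9 to 44.4 CPM in knockouts (median 39.6), against 51.8 to 101 CPM in controls (median 69.9), a log2 fold change of −0.87 ± 0.15 (adjusted p = 0.000459), and the snoRNA host gene Snhg15 at 2.09 to 5.12 CPM in knockouts (median 4.37), against 6.02 to 12.8 CPM in controls (median 9.94), a log2 fold change of −1.23 ± 0.22 (adjusted p = 0.000665), again without overlap. Spns2, an exporter of sphingosine-1-phosphate named after its values were seen, stood at 26.2 to 48.6 CPM in knockouts (median 27.2), against 44.2 to 83.9 CPM in controls (median 64.8), a log2 fold change of −1.01 ± 0.17 (adjusted p = 0.000284), where knockouts 1 and 12 were the highest of their group and lay just above the lowest control.

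Other large falls rested on some controls. The long non-coding RNA Lncpint fell (−1.63 ± 0.39, adjusted p = 0.00669), but its level was 6.45 to 19.1 CPM in knockouts, 12.4 to 20.9 CPM in controls 20 to 23 and 52.5 to 80.1 CPM in controls 25 to 27. Knockouts overlapped controls 20 to 23 and lay below the other 3, and without controls 25 to 27 the fold change was −0.50 (adjusted p = 0.45). The LIM domain gene Crip3 had the same arrangement, with 0.777 to 6.12 CPM in knockouts, 3.79 to 6.43 CPM in controls 20 to 23 and 10.1 to 13.4 CPM in controls 25 to 27 (log2 fold change −1.3 ± 0.34, adjusted p = 0.0117 with all controls, −0.73 and adjusted p = 0.285 without controls 25 to 27).

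**Figure D2:**
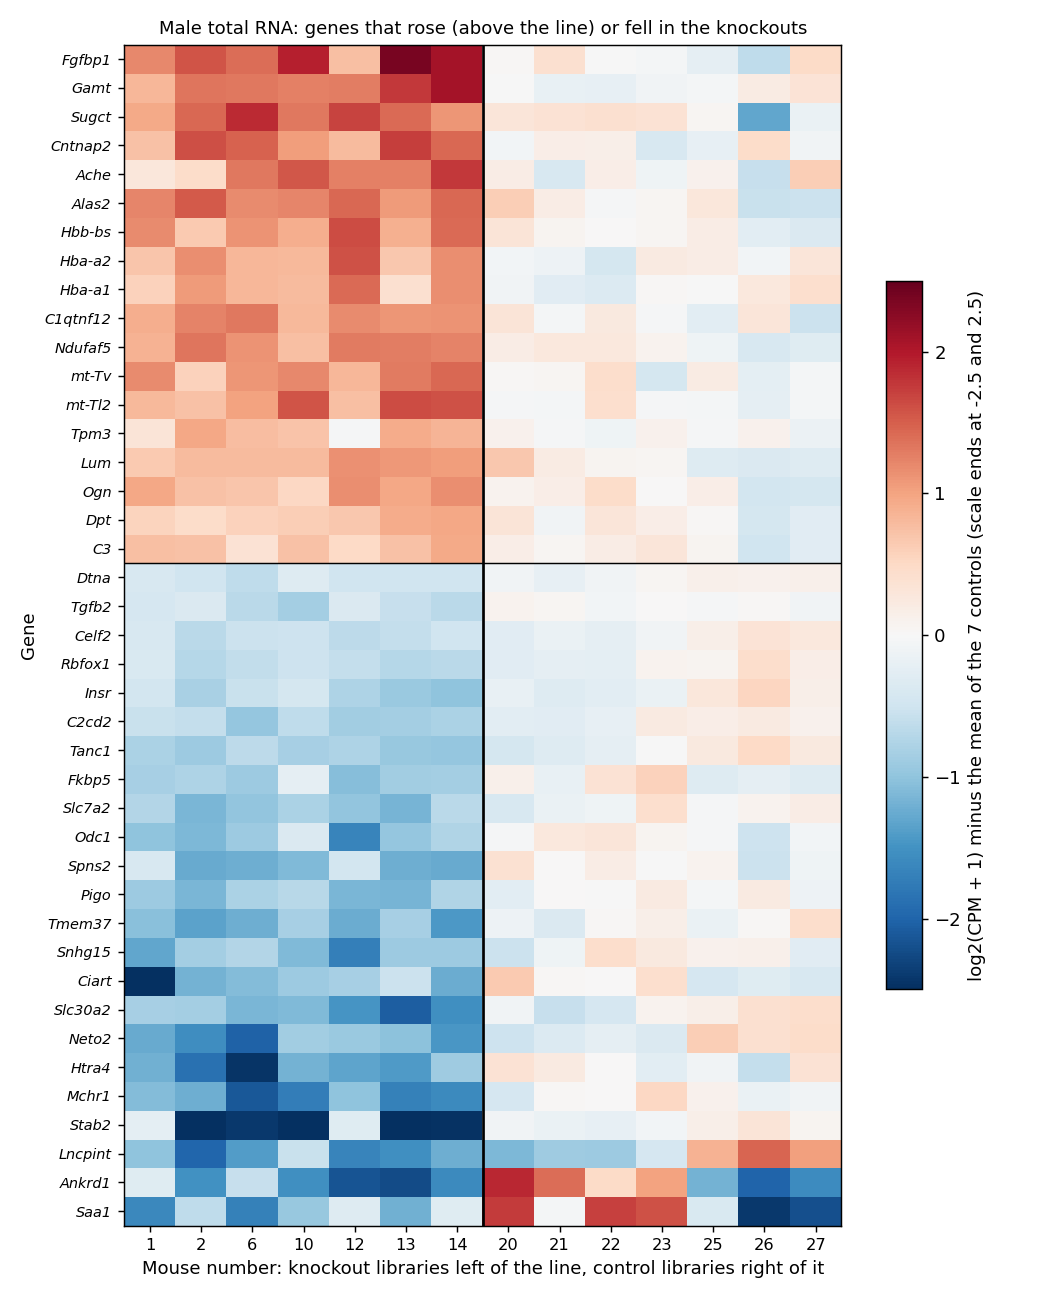
Level of 18 genes that rose and 23 that fell, as log2(CPM + 1) minus the mean of the 7 controls, by library, with the 7 knockouts left of the line and the 7 controls right of it. Columns are single mice in the order of their numbers. Stab2 stands near the controls in knockouts 1 and 12, and Lncpint, Ankrd1 and Saa1 differ more between controls 20 to 23 and controls 25 to 27 than between the groups.

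Transcripts of red cells and their precursors rose together. These cells make haemoglobin, whose haem is begun by the enzyme Alas2. Of 7 erythroid genes tested, 6 rose and 0 fell, with a median log2 fold change of 1.02 against 0.0015 for all genes, and the count was 6 of 7 without controls 25 to 27 and without controls 20 to 23 as well. The summed level of the list was 1957, 1780, 1911, 1744, 2686, 1656 and 2359 CPM in knockouts 1 to 14, against 1221, 1087, 1047, 1047, 1040.5, 746 and 824 CPM in controls 20 to 27. All 7 knockouts lay above all 7 controls, with knockout 12 highest and control 26 lowest, and the difference was 1.0 on the log2 scale (two-sided exact permutation test, p = 0.000583, adjusted p = 0.0035 over 6 measures). Alas2 stood at 19 to 26.7 CPM in knockouts (median 21.4), against 5.52 to 13.7 CPM in controls (median 8.85), a log2 fold change of 1.31 ± 0.19 (adjusted p = 8.62e-05). The beta-globin gene Hbb-bs stood at 804 to 1582 CPM in knockouts (median 1116), against 395 to 634 CPM in controls (median 527), a log2 fold change of 1.13 ± 0.17 (adjusted p = 0.000109). The alpha-globin genes Hba-a2 and Hba-a1 rose too (1.02 ± 0.15, adjusted p = 8.97e-05, and 0.92 ± 0.15, adjusted p = 0.000377), and only for Hba-a1 did the groups touch, with knockout 13 at 106 CPM and control 27 at 107 CPM. Near-identical copies share reads between Hba-a1 and Hba-a2 and between Hbb-bs and Hbb-bt, so the value of a single copy is uncertain. Whether blood left in the muscle or cells in it carried these transcripts was not tested.

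Since these genes moved together, the 250 bases before the start of 2 of them are shown (RefSeq, build GRCm38.p6), with capitals for the motif AGATAA, or TTATCT on the other strand, the core letters of sites bound by the erythroid factor GATA1. Alas2 lies on chromosome X (chrX:150547167-150547416, plus strand) and Hbb-bs on chromosome 7 (chr7:103827929-103828178, minus strand).
Alas2: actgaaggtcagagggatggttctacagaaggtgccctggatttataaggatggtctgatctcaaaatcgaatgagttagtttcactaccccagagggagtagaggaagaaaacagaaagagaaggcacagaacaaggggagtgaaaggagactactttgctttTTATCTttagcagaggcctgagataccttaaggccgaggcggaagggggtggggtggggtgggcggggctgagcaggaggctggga
Hbb-bs: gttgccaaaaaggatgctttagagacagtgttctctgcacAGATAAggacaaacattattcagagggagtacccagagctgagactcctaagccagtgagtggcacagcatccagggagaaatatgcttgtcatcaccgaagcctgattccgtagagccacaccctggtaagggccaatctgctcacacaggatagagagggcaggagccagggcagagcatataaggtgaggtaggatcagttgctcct
Each window holds the motif once. Of the 6 erythroid genes that rose, 5 had a promoter in the table and 2 of these held the motif. It is present in 3281 of 32851 promoter windows of this length (9.99%), so the letters alone are common and name no bound site.

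A group of genes, noticed after their values were seen, changed in 5 of the 7 knockouts while knockouts 1 and 12 stayed at or near the level of controls. Stab2, a scavenger receptor of sinusoidal endothelium that clears hyaluronan, stood at 12.4 and 11.8 CPM in knockouts 1 and 12, at 1.63 to 1.99 CPM in the other 5 and at 12.8 to 18.9 CPM in controls. Without knockouts 1 and 12 its fold change was −3.02, against −1.76 (adjusted p = 0.00301) with all 7. These 2 libraries were left out for their values of such genes, so a larger change was fixed in advance and is no test. Atoh7, a transcription factor of the basic helix-loop-helix type known from retinal neurons, stood at 0.777 and 3.48 CPM in knockouts 1 and 12, at 3.98 to 22.8 CPM in the other 5 and at 1.24 to 3.22 CPM in controls. Knockout 6, at 3.98 CPM, was the lowest of the 5 and only just above the highest control. Cyp4f39, a fatty acid omega-hydroxylase, stood at 1.55 and 2.44 CPM in knockouts 1 and 12, at 10.9 to 18.2 CPM in the other 5 and at 1.38 to 3.11 CPM in controls. The calcium-sensing receptor gene Casr had the same order, with 1.17 and 3.83 CPM in knockouts 1 and 12, 5.97 to 14.9 CPM in the other 5 and 1.41 to 5.22 CPM in controls (log2 fold change 1.39 ± 0.39, adjusted p = 0.0178 over all 7). For Cyp4f39 and Casr all but knockouts 1 and 12 lay above the highest control, for Atoh7 all but knockout 1 did, and for Stab2 both lay just below the lowest control, control 22 at 12.8 CPM. Casr was not called without controls 25 to 27 (1.61, adjusted p = 0.0519) or without controls 20 to 23 (1.05, adjusted p = 0.146), and Cyp4f39 not without controls 25 to 27 (2.13, adjusted p = 0.0534).

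Mss51, a muscle gene whose protein lies in mitochondria, stood at 215 and 216 CPM in knockouts 1 and 12, at 400.5 to 527 CPM in the other 5 and at 158 to 334 CPM in controls. With all libraries it was called narrowly (log2 fold change 0.81 ± 0.27, adjusted p = 0.0437), and 10 of the 14 libraries each ended the call when left out, with adjusted p up to 0.0891 without control 25. Without knockouts 1 and 12, left out for such values, it stood at 1.05, which again is no test. It was not called without controls 25 to 27 (0.97, adjusted p = 0.0952) or without controls 20 to 23 (0.62, adjusted p = 0.219). In the ribosomal libraries that carry the numbers 1 and 12, Mss51 stood at 619.5 and 623 CPM, against 216 to 385 CPM in ribosomal controls, Cyp4f39 at 11.3 and 18.3 CPM against 0.606 to 4.33 CPM, and Casr at 9.92 and 9.15 CPM against 0.606 to 5.0 CPM. Both ribosomal libraries were above all ribosomal controls for these 3 genes, while ribosomal knockout 2 fell within the controls for Mss51 at 379 CPM, in a library of only 160313 counts. Stab2 stood at 1.03 and 7.48 CPM in ribosomal knockouts 1 and 12, against 6.51 to 19.3 CPM in ribosomal controls, so ribosomal knockout 12 was inside that range. Ribosomal knockout 2 was inside it as well, at 6.78 CPM, which rests on few reads in that shallow library. Atoh7 stood at 9.24 and 4.99 CPM in ribosomal knockouts 1 and 12, against 0.371 to 6.06 CPM in ribosomal controls. Ribosomal knockout 12 was again inside and lay below ribosomal control 22. For other genes the total libraries 1 and 12 looked like the other knockouts: Gamt, Ndufaf5, Htra4, C2cd2 and Tanc1 lay outside the range of controls in both. They are also the libraries with the most mitochondrially encoded mRNA, and whether that bears on this split was not tested.

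**Figure D3:**
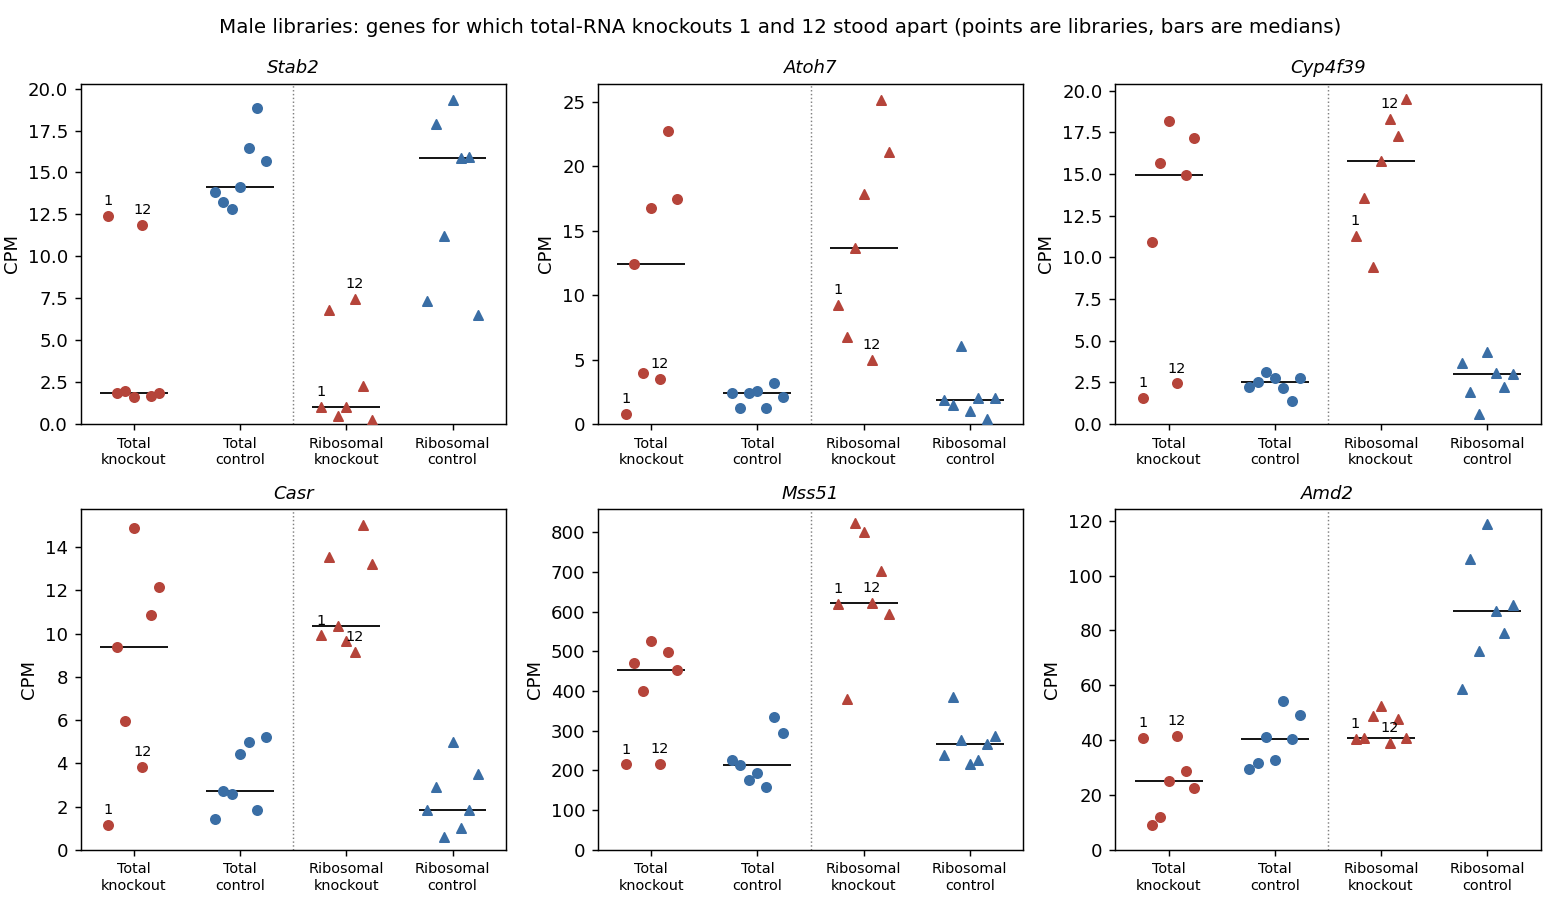
Level in CPM of 6 genes in male total RNA (circles) and male ribosomal RNA (triangles), with knockouts in red left of controls in blue, and with the numbers 1 and 12 written beside those knockouts. Bars are group medians. In total RNA knockouts 1 and 12 lie at or near the controls for all 6 genes, and in ribosomal RNA they lie with the other knockouts for Cyp4f39, Casr, Mss51 and Amd2.

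Part of the polyamine genes fell. Polyamines are made from ornithine by ornithine decarboxylase (Odc1) and from S-adenosylmethionine by its decarboxylase (Amd1, Amd2), and spermine is oxidized by Smox. Of 16 genes of the list, 0 rose and 5 fell (31.25%, against 7.36% of all genes tested), with a median of −0.10. Without controls 25 to 27 the count was 0 and 3, and without controls 20 to 23 it was 3 and 6. Odc1 stood at 8.01 to 21 CPM in knockouts (median 13.6), against 18.9 to 34.2 CPM in controls (median 26.9), a log2 fold change of −1.0 ± 0.19 (adjusted p = 0.00128), with only knockout 10 at 21 CPM above the lowest control, control 26 at 18.9 CPM. Slc7a2, a transporter of arginine and other cationic amino acids, stood at 71.7 to 101 CPM in knockouts (median 81.6), against 122 to 217 CPM in controls (median 158), a log2 fold change of −0.94 ± 0.16 (adjusted p = 0.000424) and did not overlap. Smox stood at 127 to 389.6 CPM in knockouts (median 218), against 287 to 464 CPM in controls (median 394), a log2 fold change of −0.70 ± 0.20 (adjusted p = 0.0215), and knockouts 1 and 12 were its highest knockouts, at 306 and 389.6 CPM. Smox was not called without knockout 6 (−0.58, adjusted p = 0.0506), knockout 14 (−0.66, adjusted p = 0.0502) or control 25 (−0.64, adjusted p = 0.0506), nor without controls 25 to 27 (−0.59, adjusted p = 0.185). Amd2 was called at −0.66 ± 0.22, adjusted p = 0.0437, a call that 9 of the 14 libraries each ended, with adjusted p up to 0.109 without control 25. It was not called without controls 25 to 27 (−0.44, adjusted p = 0.382). Amd1, whose copy is nearly identical, stood at −0.43 (adjusted p = 0.0887), so the split of reads between them is uncertain.

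Several of these genes are also known to respond to androgen in muscle. The list of androgen-responsive genes held 7 falls (43.75%, against 7.36% of all genes tested) and 1 rise among 16 tested. Its median was −0.47, with 0 rises and 5 falls without controls 25 to 27 and 2 and 8 without controls 20 to 23. Its members Odc1, Smox and Amd2, are in the polyamine list as well. Slc38a4, an amino acid transporter, stood at 129 to 281 CPM in knockouts (median 169.8), against 215 to 372 CPM in controls (median 312), a log2 fold change of −0.78 ± 0.14 (adjusted p = 0.000695), with knockout 1 at 281 CPM inside the range of controls. Mstn, which encodes the growth inhibitor myostatin, was called at −0.41 ± 0.12, adjusted p = 0.0222, and the call ended without control 25 (−0.35, adjusted p = 0.0587) or control 27 (−0.38, adjusted p = 0.0512). It also ended without controls 25 to 27 (−0.32, adjusted p = 0.209).

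Glucocorticoid-responsive genes had 5 falls (22.7%, against 7.36% of all genes tested) and 0 rises among 22 (median −0.25). They had 0 rises and 6 falls without controls 25 to 27 and 1 and 5 without controls 20 to 23. Fkbp5, a co-chaperone of steroid receptors that glucocorticoids induce and that also stands in the androgen list, stood at 29.6 to 53.8 CPM in knockouts (median 34.7), against 50.0 to 94.8 CPM in controls (median 55.6), a log2 fold change of −0.83 ± 0.16 (adjusted p = 0.0013). Only knockout 10, at 53.8 CPM, overlapped the controls. Without controls 20 to 23 it was not called (−0.46, adjusted p = 0.0567). Cdkn1a, an inhibitor of the cell cycle, stood at 31.4 to 68.3 CPM in knockouts (median 52.7), against 66.2 to 163 CPM in controls (median 153), a log2 fold change of −1.2 ± 0.29 (adjusted p = 0.0064). All but knockout 6, at 68.3 CPM, lay below every control, the lowest of which was control 27 at 66.2 CPM. Without controls 20 to 23 it was not called (−0.85, adjusted p = 0.0811). Cebpd, a transcription factor gene, was called at −0.62 ± 0.19, adjusted p = 0.0239, and the call ended without control 21 (−0.51, adjusted p = 0.0554), without knockout 14 (−0.61, adjusted p = 0.0506) or without controls 20 to 23 (−0.37, adjusted p = 0.255).

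Most clock genes that were called fell. The circadian clock is a loop in which Clock or Npas2 with Bmal1 turn on Per, Cry and Nr1d genes, and the products of these hold their activators back. Of 20 clock genes tested, 8 fell (40%, against 7.36% of all genes tested) and 1 rose (median −0.30). There were 5 falls and 1 rise without controls 25 to 27 and 7 and 1 without controls 20 to 23. Ciart, a repressor of the loop, stood at 0.777 to 8.83 CPM in knockouts (median 5.69), against 9.63 to 21.3 CPM in controls (median 13.4), a log2 fold change of −1.31 ± 0.29 (adjusted p = 0.00397), with no overlap and knockout 1 lowest, and it was not called without controls 20 to 23 (−0.80, adjusted p = 0.118). Per1 stood at 8.54 to 18.6 CPM in knockouts (median 14.5), against 17.4 to 29.9 CPM in controls (median 24.7), a log2 fold change of −0.86 ± 0.20 (adjusted p = 0.00541). Knockout 10, at 18.6 CPM, and control 22, at 17.4 CPM, were the only ones of their groups to cross. Bhlhe41, another repressor, stood at 101 to 199.7 CPM in knockouts (median 111), against 159.8 to 227 CPM in controls (median 196), a log2 fold change of −0.58 ± 0.12 (adjusted p = 0.00314), and knockout 12 at 199.7 CPM lay among the controls. It was not called without controls 25 to 27 (−0.50, adjusted p = 0.0534). Usp2, a deubiquitinase with a daily rhythm, stood at 209 to 336 CPM in knockouts (median 288), against 318 to 609.6 CPM in controls (median 396), a log2 fold change of −0.63 ± 0.12 (adjusted p = 0.001), and the nuclear receptor gene Rora at 338 to 493 CPM in knockouts (median 367), against 457 to 676 CPM in controls (median 598), a log2 fold change of −0.54 ± 0.10 (adjusted p = 0.00138). Knockout 10 overlapped the controls for Usp2, and knockout 1 did for Rora. The other falls, named to complete the count, were Per2 (−0.75 ± 0.20, adjusted p = 0.0114), Per3 (−0.86 ± 0.22, adjusted p = 0.011) and Nr1d2 (−0.32 ± 0.09, adjusted p = 0.0141), and the rise was Npas2 (0.77 ± 0.20, adjusted p = 0.0109). Without controls 25 to 27 Per3 (−0.57, adjusted p = 0.189) and Nr1d2 (−0.21, adjusted p = 0.235) were not called. Per2 (−0.63, adjusted p = 0.0707) and Npas2 (0.30, adjusted p = 0.348) were not called without controls 20 to 23. The labels do not give the time of day of dissection, and its part in these values was not tested.

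The windows before the start of the 3 falls whose promoter holds the E-box CACGTG, the core letters of sites bound by Clock and Bmal1, are shown (RefSeq, GRCm38.p6) with the E-box in capitals. They are chr3:95882229-95882478 on the minus strand for Ciart, chr6:145865421-145865670 on the minus strand for Bhlhe41 and chr11:69098699-69098948 on the plus strand for Per1.
Ciart: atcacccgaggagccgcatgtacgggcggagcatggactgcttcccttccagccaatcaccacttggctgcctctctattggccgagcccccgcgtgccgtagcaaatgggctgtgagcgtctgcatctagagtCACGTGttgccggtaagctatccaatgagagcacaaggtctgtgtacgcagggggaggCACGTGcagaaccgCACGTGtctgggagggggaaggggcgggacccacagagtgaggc
Bhlhe41: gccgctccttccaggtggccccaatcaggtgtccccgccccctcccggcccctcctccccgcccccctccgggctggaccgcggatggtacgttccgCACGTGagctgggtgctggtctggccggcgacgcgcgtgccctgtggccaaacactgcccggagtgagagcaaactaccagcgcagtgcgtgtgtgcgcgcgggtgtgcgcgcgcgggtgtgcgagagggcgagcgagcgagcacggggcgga
Per1: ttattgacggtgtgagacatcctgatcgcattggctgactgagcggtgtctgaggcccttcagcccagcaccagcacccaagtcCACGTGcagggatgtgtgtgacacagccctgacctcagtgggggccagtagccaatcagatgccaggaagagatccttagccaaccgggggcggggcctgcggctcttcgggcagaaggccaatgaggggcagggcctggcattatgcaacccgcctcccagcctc
Ciart holds 3 E-boxes, Bhlhe41 and Per1 hold 1 each, and the motif reads the same on both strands. Of the 8 clock genes that fell, 7 had a promoter in the table and 3 of these held it, as did 5 of the 17 clock genes with a promoter and 1978 of 32851 promoters of this length (6.02%).

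Some genes of insulin action and of muscle splicing fell. Of 25 genes of insulin signalling and glucose uptake, 6 fell (24%, against 7.36% of all genes tested) and 1 rose (median −0.19, 3 falls and 0 rises without controls 25 to 27, 8 and 1 without controls 20 to 23). Insr, the insulin receptor gene, stood at 51.8 to 76.9 CPM in knockouts (median 61), against 83.2 to 151 CPM in controls (median 92.7), a log2 fold change of −0.72 ± 0.14 (adjusted p = 0.00126). Tbc1d4, the Akt substrate that holds glucose transporters inside the cell, stood at 49.1 to 90.6 CPM in knockouts (median 71.9), against 81 to 121 CPM in controls (median 119), a log2 fold change of −0.67 ± 0.12 (adjusted p = 0.000568). Insr did not overlap between groups, and for Tbc1d4 knockout 10, at 90.6 CPM, lay above control 22, at 81 CPM. The kinase gene Rps6kb1 was called at −0.47 ± 0.10, adjusted p = 0.00265, and at −0.30 (adjusted p = 0.0903) without controls 25 to 27.

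Of 24 splicing regulators, 7 fell (29.2%) and 0 rose (median −0.18, 2 falls without controls 25 to 27 and 7 without controls 20 to 23). Rbfox1, which sets many muscle exons, stood at 203 to 257 CPM in knockouts (median 218), against 275 to 452 CPM in controls (median 349.9), a log2 fold change of −0.62 ± 0.10 (adjusted p = 0.000159), and Celf2, an RNA-binding protein with targets shared with muscleblind proteins, at 352 to 430.0 CPM in knockouts (median 391), against 465 to 718 CPM in controls (median 529), a log2 fold change of −0.57 ± 0.09 (adjusted p = 0.000386). Both had all knockouts below all controls. Rbfox2 also fell without overlap, with 64.5 to 79.8 CPM in knockouts (median 72.8), against 86.3 to 115 CPM in controls (median 107), a log2 fold change of −0.50 ± 0.11 (adjusted p = 0.0042), and stood at −0.41 (adjusted p = 0.0678) without controls 25 to 27. Tra2a fell with all controls (−0.54 ± 0.12, adjusted p = 0.00444), but controls 25 to 27 were its highest, 228 to 294 CPM, and without them it stood at −0.24 (adjusted p = 0.194).

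Among the AU-rich element binding proteins the falls included Tia1 (−0.36 ± 0.10, adjusted p = 0.0189), a stress granule protein, and Zfp36 (−0.41 ± 0.13, adjusted p = 0.033), which encodes the decay factor tristetraprolin. Both were lost without controls 25 to 27. Single libraries whose omission also ended a call were knockout 13 for Tia1 (−0.31, adjusted p = 0.05) and 8 libraries for Zfp36, with the highest adjusted p without control 27 (−0.37, adjusted p = 0.0776). Of 31 tested mRNAs known as HuR targets, 2 rose (6.45%) and 2 fell (6.45%), with a median of −0.04 (1 rise and 2 falls without controls 25 to 27, 4 and 3 without controls 20 to 23). These shares are close to those of all genes tested. The rises were Ache and the plasminogen activator gene Plau (0.53 ± 0.17, adjusted p = 0.0353), and the falls were Cdkn1a and Mtdh (−0.37 ± 0.07, adjusted p = 0.00161), which encodes the protein metadherin. Plau was lost without any of 7 single libraries, among them control 27 (0.45, adjusted p = 0.0896) and knockout 14 (0.48, adjusted p = 0.0843). It was also lost without controls 25 to 27 (0.24, adjusted p = 0.475). Mtdh stayed called without each single library and with either set of controls.

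The dystrophin complex, which ties the cytoskeleton of the fibre to the matrix, had 5 falls and 0 rises among 15 (median −0.20). The falls made up 33.3%, against 7.36% of all genes tested. There were 2 falls without controls 25 to 27, and 5 falls and 1 rise without controls 20 to 23. Dtna, which encodes alpha-dystrobrevin, stood at 206 to 254 CPM in knockouts (median 226), against 277 to 348 CPM in controls (median 328), a log2 fold change of −0.48 ± 0.07 (adjusted p = 9.7e-05), with no overlap. Sntb1, a syntrophin gene, was called at −0.65 ± 0.18, adjusted p = 0.0158, but not without controls 20 to 23 (−0.40, adjusted p = 0.21). Dmd, which encodes dystrophin, stood at 211 to 354 CPM in knockouts, 287 to 377 CPM in controls 20 to 23 and 492 to 675 CPM in controls 25 to 27. Its call (−0.70 ± 0.19, adjusted p = 0.0147) was lost without controls 25 to 27 (−0.31, adjusted p = 0.403). At the neuromuscular junction, where Ache rose, 3 of 18 genes fell (16.7%, against 7.36% of all genes tested). Musk, the kinase that clusters acetylcholine receptors, stood at 6.87 to 16.8 CPM in knockouts (median 13.2), against 16.4 to 24.9 CPM in controls (median 23.3), a log2 fold change of −0.78 ± 0.17 (adjusted p = 0.00319), with knockout 10 at 16.8 CPM above control 23 at 16.4 CPM. Chrnb1, the receptor's beta subunit, stood at 35.7 to 65.1 CPM in knockouts (median 53.1), against 58.2 to 76.5 CPM in controls (median 69), a log2 fold change of −0.51 ± 0.14 (adjusted p = 0.0168), with knockout 6 inside the range of controls, and was not called without controls 20 to 23 (−0.40, adjusted p = 0.117). The fast fibre list (17 genes), the muscle fibre list (16) and the Schwann cell list (11) had 0 genes called in either direction with all controls and without controls 25 to 27. The fast fibre list had 5 falls without controls 20 to 23. There the muscle fibre list had 5 falls and 1 rise and the Schwann cell list 1 rise.

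Of 20 p53 targets, 6 fell (30%, against 7.36% of all genes tested) and 1 rose (median −0.18), with Cdkn1a among the falls. There were 2 falls without controls 25 to 27, and 4 falls and 3 rises without controls 20 to 23. In that last setting 14.3% of all genes fell and 14.1% rose. The nuclease gene Aen stood at 3.48 to 6.87 CPM in knockouts (median 6.6), against 7.31 to 12.8 CPM in controls (median 9.33), a log2 fold change of −0.69 ± 0.18 (adjusted p = 0.011), without overlap, and was not called without controls 20 to 23 (−0.47, adjusted p = 0.151). Trp53inp1 and the p53 ligase gene Mdm2 were called at −0.71 ± 0.16, adjusted p = 0.0044, and −0.41 ± 0.11, adjusted p = 0.0158, and neither was called without controls 25 to 27. Among TGF-beta and myostatin genes, 6 of 29 fell (20.7%) and 2 rose (6.9%), against 7.36 and 6.83% of all genes. The counts were 3 falls and 0 rises without controls 25 to 27. Without controls 20 to 23 they were 3 and 6, where 14.3% of all genes fell and 14.1% rose. Tgfb2, a ligand, stood at 79.2 to 112 CPM in knockouts (median 96.8), against 135 to 153 CPM in controls (median 146), a log2 fold change of −0.56 ± 0.09 (adjusted p = 0.000351), with no overlap. Fst, whose product follistatin binds myostatin, rose and stood at 39.1 to 65.1 CPM in knockouts (median 45.6), against 22.5 to 40.6 CPM in controls (median 30.6), a log2 fold change of 0.61 ± 0.14 (adjusted p = 0.00446), with knockout 10 at 39.1 CPM below the highest control, control 20 at 40.6 CPM. It was not called without controls 25 to 27 (0.44, adjusted p = 0.109).

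Fatty acid oxidation had 5 falls (21.7%, against 7.36% of all genes tested) and 0 rises among 23 (median −0.14). The falls were 1 without controls 25 to 27 and 4 without controls 20 to 23, where 14.3% of all genes fell. Acadl, the long-chain acyl-CoA dehydrogenase, stood at 256 to 388 CPM in knockouts (median 348), against 386 to 532 CPM in controls (median 431), a log2 fold change of −0.40 ± 0.09 (adjusted p = 0.00487), where knockout 1, at 388 CPM, was just above control 26, at 386 CPM. Decr1, a reductase for unsaturated fatty acids, was called at −0.34 ± 0.07, adjusted p = 0.0038, but not without controls 25 to 27 (−0.29, adjusted p = 0.0618). Of the 8 mitochondrially encoded mRNAs tested, 2 rose and 0 fell (median 0.41). The count was 1 rise with either set of controls left out. The complex I subunit mRNA mt-Nd5 stood at 3568 to 6486 CPM in knockouts (median 3921), against 2315 to 3248 CPM in controls (median 3130.0), a log2 fold change of 0.59 ± 0.18 (adjusted p = 0.0313). The groups did not overlap and knockouts 1 and 12 were highest, at 6486 and 6045 CPM, and the call ended without knockout 1 (0.48, adjusted p = 0.0713), knockout 12 (0.51, adjusted p = 0.0699), control 26 (0.53, adjusted p = 0.0753) or control 27 (0.59, adjusted p = 0.0542). It also ended without controls 25 to 27 (0.52, adjusted p = 0.222). Of 45 nuclear-encoded genes of oxidative phosphorylation, 5 rose (11.1%, against 6.83% of all genes tested) and 0 fell with all controls. None was called without controls 25 to 27. The count was 12 rises and 3 falls without controls 20 to 23.

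Falls of stress and acute phase genes went with high levels in controls 20 to 23. Ankrd1, a stretch-induced protein of the sarcomere, stood at 42.8 to 166 CPM in knockouts, at 288 to 761 CPM in controls 20 to 23 and at 50.6 to 89.8 CPM in controls 25 to 27 (log2 fold change −1.9 ± 0.54, adjusted p = 0.0191). Knockouts were below controls 20 to 23 and overlapped the other 3, and without controls 20 to 23 the sign turned (0.30, adjusted p = 0.739). Saa1, a serum amyloid gene of the acute phase, stood at 1.42 to 5.31 CPM in knockouts, at 6.5 to 25.3 CPM in controls 20 to 23 and at 0.46 to 4.97 CPM in controls 25 to 27, and its fold change was −1.95 with all controls (adjusted p = 0.0126) and 0.58 without controls 20 to 23 (adjusted p = 0.516). Its near copy Saa2 shares reads with it. Ccl2, a monocyte chemokine, and Socs3, an inhibitor of cytokine signalling, changed sign too. Ccl2 stood at −1.74 with all controls (adjusted p = 0.0364) and at 1.48 without controls 20 to 23 (adjusted p = 0.083), and Socs3 at −1.27 (adjusted p = 0.0218) and 0.48 (adjusted p = 0.317). The call of Ccl2 ended without any of 7 single libraries, with the highest adjusted p without control 21 (−1.06, adjusted p = 0.164), and that of Socs3 without control 21 (−1.0, adjusted p = 0.0597) or control 22 (−0.89, adjusted p = 0.0791). The near-identical heat shock genes Hspa1a and Hspa1b held 381 and 425 CPM in control 20, and neither was called without that library (−0.67, adjusted p = 0.11, and −0.69, adjusted p = 0.165). Neither was called without controls 20 to 23 (−0.41, adjusted p = 0.428, and −0.25, adjusted p = 0.699). By list, 5 of 14 acute phase genes, 5 of 26 immediate-early and mechanical stress genes and 3 of 19 heat shock genes fell with all controls. These are 35.7, 19.2 and 15.8%, against 7.36% of all genes, and 2, 1 and 0 rose. Without controls 20 to 23 the falls were 0, 1 and 2 and the rises 5, 1 and 1. The acute phase median was then 0.53, against −0.37 with all controls. Without controls 25 to 27 the falls were 6, 7 and 8 and the rises 1, 0 and 0.

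Transcripts of fibroblasts and matrix rose, and the number called leaned on controls 25 to 27. Of 17 fibroblast and progenitor genes, 11 rose (64.7%) and 0 fell (median 0.48). Of 33 matrix glycoproteins and proteoglycans 15 rose (45.5%) and 0 fell (median 0.37), where 6.83% of all genes rose. Without controls 25 to 27 the rises were 3 and 2, with medians of 0.34 and 0.21, and 1 matrix gene fell. In that setting 1.27% of all genes rose. Without controls 20 to 23 the rises were 14 and 25, where 14.1% of all genes rose. The fibroblast list summed to 4472 to 5399 CPM in knockouts, to 3575 to 4177 CPM in controls 20 to 23 and to 2349.6 to 3102 CPM in controls 25 to 27. Every knockout stood above every control, and controls 25 to 27 were the lowest. Dpt, a matrix protein of fibroblasts, stood at 221 to 316 CPM in knockouts (median 248), against 119 to 201 CPM in controls (median 163), a log2 fold change of 0.67 ± 0.12 (adjusted p = 0.000854) and remained called with either set of controls (0.51, adjusted p = 0.0305, and 0.93, adjusted p = 0.000151). Lum, the keratan sulfate proteoglycan lumican, stood at 88.9 to 125 CPM in knockouts (median 98.1), against 43.7 to 90.4 CPM in controls (median 58.6), a log2 fold change of 0.86 ± 0.14 (adjusted p = 0.000426), with control 20 at 90.4 CPM above knockout 1 at 88.9 CPM. Scara5, a ferritin receptor of progenitors, stood at 39.8 to 62.2 CPM in knockouts (median 44.3), against 20.5 to 35.4 CPM in controls (median 28.9), a log2 fold change of 0.74 ± 0.15 (adjusted p = 0.00205), and the proteoglycan gene Ogn at 167 to 263 CPM in knockouts (median 227), against 84.7 to 161 CPM in controls (median 124), a log2 fold change of 0.87 ± 0.16 (adjusted p = 0.000924), both without overlap.

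Of 20 collagen genes, 8 rose (40%, against 6.83% of all genes tested) and 1 fell. The counts were 0 and 0 without controls 25 to 27, and 14 and 0 without controls 20 to 23. Col12a1 rose (0.82 ± 0.21, adjusted p = 0.00909), with knockout 12 highest at 37.3 CPM, but was not called without controls 25 to 27 (0.71, adjusted p = 0.0977). The tendon gene Tnmd also rose (1.07 ± 0.24, adjusted p = 0.00444), and knockout 12 was again highest, at 78.8 CPM, where the other knockouts held 31.2 to 51.2 CPM, and without controls 25 to 27 it was not called (0.88, adjusted p = 0.0711). Macrophage genes had 3 rises of 20 (15%, against 6.83% of all genes tested), 0 without controls 25 to 27 and 19 without controls 20 to 23. Their sum was 503 to 779 CPM in knockouts, 515 to 998 CPM in controls 20 to 23 and 186 to 339.7 CPM in controls 25 to 27, so that knockouts overlapped controls 20 to 23 and lay above controls 25 to 27. Folr2, a marker of resident macrophages, rose with all controls (0.80 ± 0.20, adjusted p = 0.00988) and stood at 0.50 (adjusted p = 0.149) without controls 25 to 27. The complement gene C3, made by fibroblasts and liver, stood at 114 to 172 CPM in knockouts (median 148), against 63 to 111 CPM in controls (median 92.9), a log2 fold change of 0.66 ± 0.12 (adjusted p = 0.000987), without overlap, and was called with either set of controls. Interferon genes had 5 rises of 27 (18.5%) and ribosomal protein genes 7 of 45 (15.6%), against 6.83% of all genes. Both had 0 rises without controls 25 to 27. The rises were 10 and 26 without controls 20 to 23, where 14.1% of all genes rose and 1 interferon gene fell. The interferon-induced Gbp2 rose (0.89 ± 0.25, adjusted p = 0.019) but not without knockout 10 (0.45, adjusted p = 0.0954), which held 51.7 CPM, nor without controls 25 to 27 (0.89, adjusted p = 0.106). It was not called without controls 20 to 23 either (0.90, adjusted p = 0.0698). The lymphocyte list summed to 57.1 to 100.1 CPM in knockouts and to 40.2 to 54.2 CPM in controls, without overlap, though only 2 of its 18 genes were high enough to test. Endothelial and smooth muscle lists had 1 and 0 rises among 18 and 14 genes, and 0 falls. They had 2 and 1 rises and 3 and 1 falls without controls 20 to 23, where 14.1% of all genes rose and 14.3% fell. Adipocyte genes had 6 rises (28.6%, against 6.83% of all genes tested) and 1 fall among 21. They had 1 rise without knockout 6 and 1 rise without controls 25 to 27. They had 6 rises and 2 falls without controls 20 to 23.

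**Figure D4:**
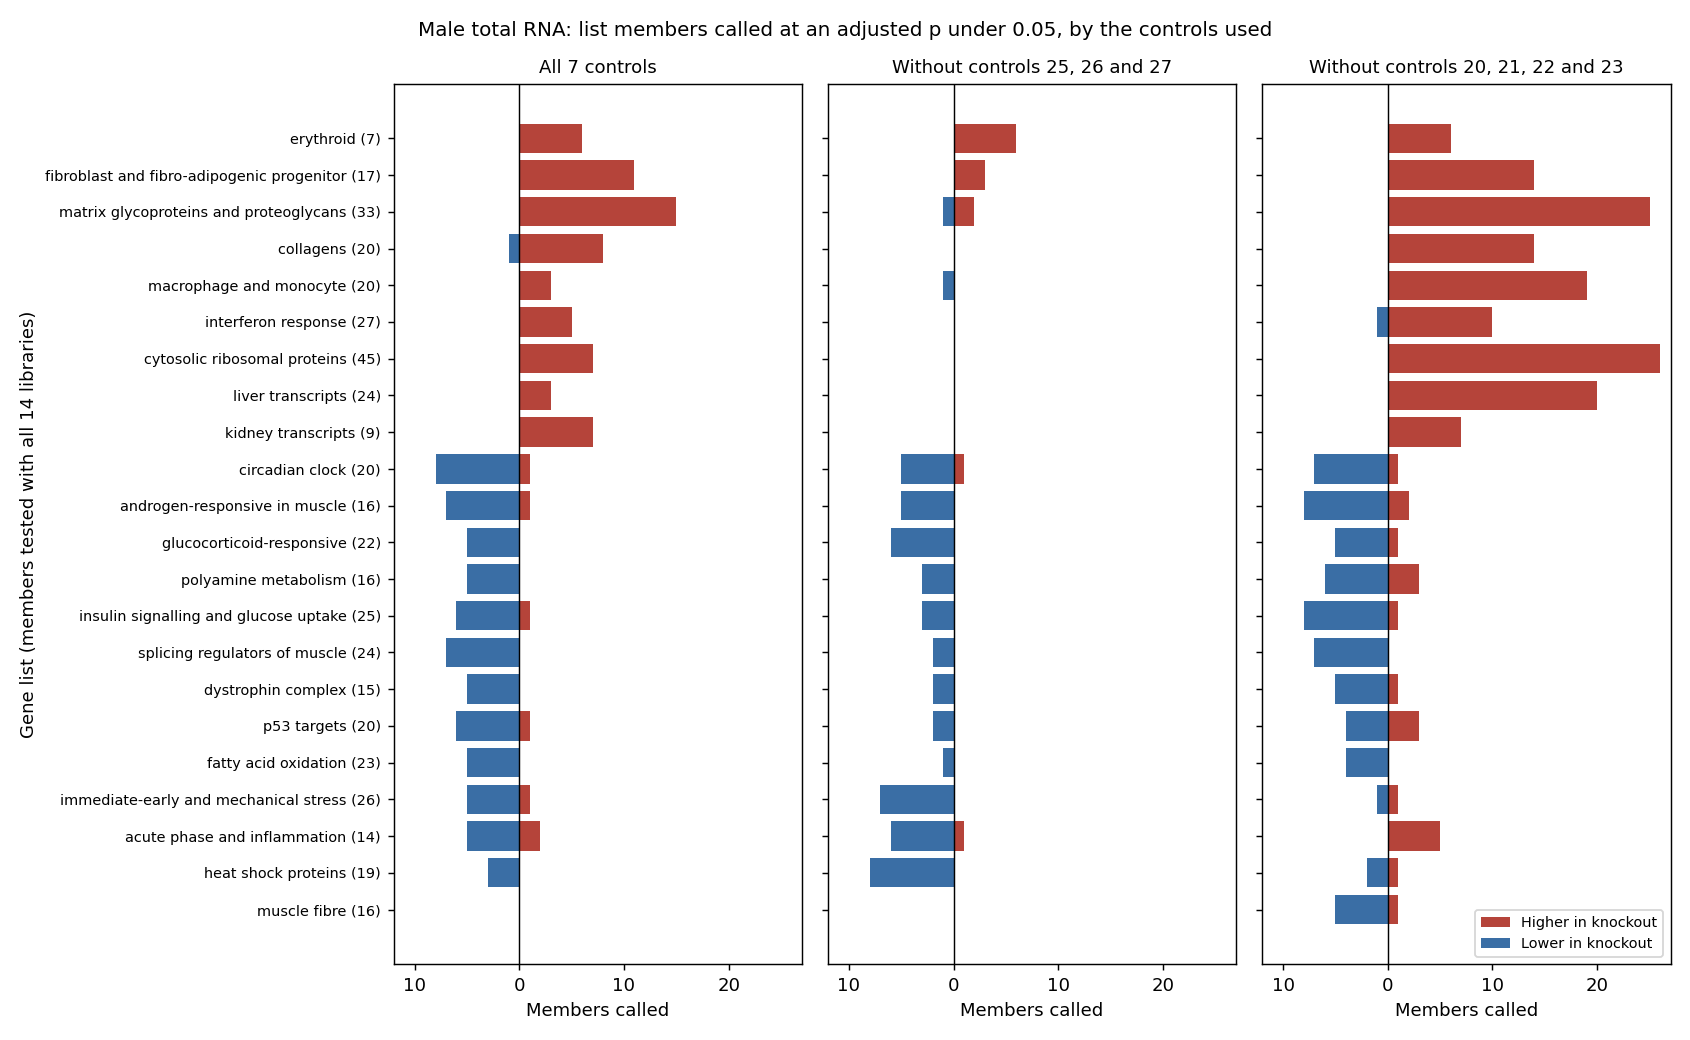
Number of members called higher (red, right) or lower (blue, left) in knockouts for 22 gene lists, with all 7 controls, without controls 25 to 27 and without controls 20 to 23. The number of members tested with all libraries stands beside each list. Erythroid rises number 6 in each panel, and clock and androgen falls stay between 5 and 8. Fibroblast, matrix, collagen, macrophage and liver rises number 3, 2, 0, 0 and 0 in the middle panel. There 1.27% of all genes rose, against 6.83% with all controls and 14.1% in the right panel.

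Many of the largest rises were high in knockout 6 and are genes of the kidney. Of the 15 genes with the largest rise among those named, 6 belonged to the kidney list. Kap, an androgen-regulated protein of the kidney tubule, stood at 713 CPM in knockout 6, at 3.4 to 52.5 CPM in the other knockouts and at 1.39 to 66.9 CPM in controls, where control 20 with 66.9 CPM was highest. Its fold change was 3.17 with all libraries (adjusted p = 0.0255) and 0.99 (adjusted p = 0.439) without knockout 6, and its call also ended without control 25, 26 or 27 (adjusted p of 0.0511 to 0.0554). Slc34a1, the phosphate transporter of the proximal tubule, stood at 293 CPM in knockout 6, at 0.34 to 24.6 CPM in the other knockouts and at 0 to 27.5 CPM in controls, and likewise was not called without knockout 6 (0.84, adjusted p = 0.461). Of 9 kidney genes tested, 7 rose with all libraries and without controls 20 to 23, and 0 rose without knockout 6 or without controls 25 to 27. Acsm2, Cltrn, Lrp2, Spink1, Cyp2j5, Slc27a2 and Fut9, which are expressed in kidney, liver or both, had 58.9 to 257 CPM in knockout 6 and at most 23.5 CPM in any other knockout, and none was called without knockout 6 or without controls 25 to 27. The summed kidney list was 2116 CPM in knockout 6, 49.6 to 193 CPM in the other knockouts and 10.7 to 217 CPM in controls, and the difference did not pass the test (1.7 on the log2 scale, two-sided exact permutation test, p = 0.0618, adjusted p = 0.0741). Acy3, an aminoacylase, held 86.8 CPM in knockout 6 and stayed called without it (0.99, adjusted p = 0.0235), but not without controls 25 to 27 (2.19, adjusted p = 0.0604).

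For 1 gene the value in knockout 6 stood against the other knockouts. The nuclease gene Dnase1 held 39 CPM in knockout 6, 1.05 to 4.15 CPM in the other 6 and 9.4 to 13.8 CPM in controls. It stood at −0.52 (adjusted p = 0.511) with all libraries and at −2.15 (adjusted p = 0.000182) without knockout 6, where all remaining knockouts lay below all controls. Without knockout 6 the whole comparison gave 727 rises (5.58%) and 784 falls (6.02%), and 3 of its 15 largest named rises were shared with those of all libraries (Mup17, Atoh7 and Cyp4f39).

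Liver transcripts were highest in knockout 14. The summed liver list was 1128 CPM there, 160 to 542 CPM in the other knockouts and 74.1 to 410 CPM in controls (difference 1.11 on the log2 scale, two-sided exact permutation test, p = 0.0519, adjusted p = 0.0741). Of 24 liver genes tested, 3 rose with all libraries (12.5%, against 6.83% of all genes tested), 0 without controls 25 to 27 and 20 without controls 20 to 23. Cps1, an enzyme of the urea cycle, stood at 1.74 to 20.9 CPM in knockouts (median 2.72), against 0 to 2.38 CPM in controls (median 0.632), a log2 fold change of 2.68 ± 0.75 (adjusted p = 0.0173), and it was not called without knockout 14 (2.06, adjusted p = 0.074) or without controls 25 to 27 (2.25, adjusted p = 0.145). The major urinary protein genes Mup17 and Mup11, members of a family of near-identical genes made in male liver, held 37.5 and 129 CPM in knockout 14. Mup17 stayed called without each single library (log2 fold change 2.76 ± 0.60, adjusted p = 0.00338) but not without controls 25 to 27 (2.3, adjusted p = 0.0541), and Mup11 was not called without knockout 14 (1.17, adjusted p = 0.156) or without controls 25 to 27 (1.49, adjusted p = 0.202). Trf and Rbp4, which muscle and fat also express, were each lost without any of several single libraries, knockout 14 among them (0.44, adjusted p = 0.119, and 0.76, adjusted p = 0.13). Both were also lost without controls 25 to 27 (0.38, adjusted p = 0.371, and 0.71, adjusted p = 0.32).

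The same comparison in total RNA of females shares no libraries with that in males. Of the 878 male rises 204 also rose in females, 23.2% of the male and 41.8% of the female rises, and 3.79% of all genes rose in females. Of the 946 male falls 255 also fell, 27% of the male and 42.2% of the female falls, with 4.7% of all genes falling in females. Only 1 male rise fell in females and 0 male falls rose. Ndufaf5, Gamt, C1qtnf12 and Htra4 moved alike, with 1.12, 1.62, 1.14 and −1.53 in males beside 1.26, 1.41, 1.18 and −2.35 in females, all called. Fgfbp1, Mchr1, Neto2 and Odc1 were called in males, with 1.77, −1.6, −1.34 and −1.0 beside 0.59, −0.75, −0.19 and −0.20 in females, and were not called there. The difference between the sexes itself passed the test of edgeR for 0 of 12860 genes, with 1225 (9.53%) at an unadjusted p under 0.05, and DESeq2 called 8 and limma-voom 0. No gene described here was shown to change in males alone.

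In RNA bound to the tagged ribosomes of male fibres, 4.09% of 9098 genes rose and 4.87% fell. Of the 561 male rises in total RNA that could be tested there, 153 also rose (27.3%, and 41.1% of the ribosomal rises), and of 772 falls 222 also fell (28.8% and 50.1%). No gene called in both had opposite directions. Gamt stood at 1.62 in total and 1.78 in ribosomal RNA, Cntnap2 at 1.38 and 1.81, Stab2 at −1.76 and −3.06, and Alas2 at 1.31 and 1.46, each called in both. The mitochondrial tRNA gene mt-Tv, at 1.09 in total RNA, stood at −0.10 in ribosomal RNA (adjusted p = 0.92), and Dpt, Lum and C3 were not called there. Their levels were low in male ribosomal libraries, at 1.48 to 14.7 CPM for mt-Tv and 14.3 to 33.9 CPM for Dpt. Lum held 2.05 to 13.6 CPM and C3 5.12 to 25.6 CPM, so the missing calls do not show a lack of effect.

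The effect differed between total and ribosomal RNA for 16 of 12546 genes (0.128%), 12 higher in total RNA (0.0956%) and 4 lower (0.0319%), with 1110 (8.85%) at an unadjusted p under 0.05. Tanc1 fell in both, by less in total RNA, with a difference of 1.09 ± 0.23 (adjusted p = 0.0211). Its ribosomal level was 6.78 to 13.2 CPM in knockouts, against 23.8 to 57 CPM in controls. Thbs4, a matrix protein of tendon and muscle, stood at 0.25 in total and −1.2 in ribosomal RNA (difference 1.48 ± 0.28, adjusted p = 0.00668), and Rock1, a kinase of the actin cytoskeleton, at 0.11 and 1.4 (difference −1.27 ± 0.18, adjusted p = 2.52e-05). Neither was called in total RNA. Ggh, a folate hydrolase, and the amidating enzyme Pam were called lower in ribosomal RNA and not called in total RNA (differences 1.49, adjusted p = 0.0211, and 1.09, adjusted p = 0.00668).

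**Figure D5:**
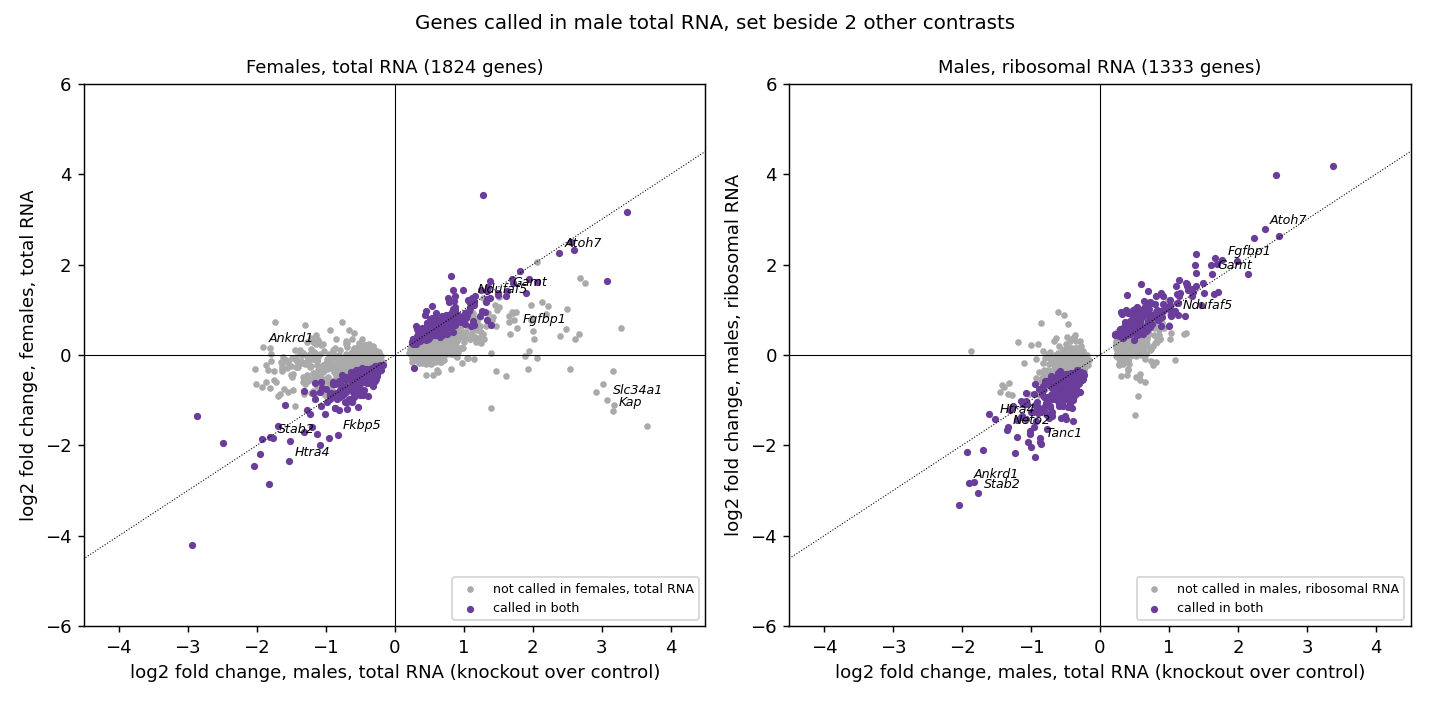
Log2 fold change in male total RNA (horizontal axis) of the genes called there, against that in female total RNA (left, 1824 genes) and in male ribosomal RNA (right, 1333 genes tested there). Purple points are also called in the other contrast and the dotted line marks equal values. Purple points lie on the same side of 0 in both contrasts, except 1 gene in females, and the kidney genes Kap and Slc34a1 lie at 3.17 and 3.08 in males and at −1.25 and −0.99 in females.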

How the data were processed

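Each library was made with the Lexogen QuantSeq kit from 500 ng of RNA and read from 1 end over 50 bases, per the labels' protocols. The counts of reads per gene were made by the authors before deposit, and the submitters' processing notes name UMI-tools, STAR, HTSeq and the mouse build GRCm39, with DESeq2 1.40.1 and R 4.3.0. The order of these steps and the counting strand are not given in the sources used here. The deposited table holds 57010 genes and 5 HTSeq summary lines. No summary line entered a library size or a test, and in the 14 libraries they put 9.78 to 23.4% of reads outside genes, 0.463 to 0.653% as ambiguous between genes and 14.0 to 18.8% as not uniquely aligned. Symbols came from the reference table for 52029 genes, which held 97.6% of counts.

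The counts were tested with the quasi-likelihood test of edgeR 4.0.16 (filterByExpr, TMM, Benjamini-Hochberg adjusted p under 0.05) in R 4.3.3 over all 28 total RNA libraries with 4 group means of 7 libraries each. The difference between RNA types used all 56 libraries and 8 group means. Alternatives used limma 3.58.1, DESeq2 1.42.0, other filters and left-out libraries. The labels number each mouse but do not say more of their origin, so p-values measure the spread between these libraries. No pair of libraries agreed within sampling noise, with a chi-square per degree of freedom of at least 2.03 over 42 pairs of the same group. On simulated counts for the 12860 genes, 88% of genes changed by 1 and 98% of those changed by 2 on the log2 scale were called in the male comparison. Of the unchanged genes 13 were called. The simulation gave every gene the same spread and held no libraries that stood apart. It checks the procedure, and its rates do not carry over to the real libraries.

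Named genes were the 15 largest rises and falls and the 10 of lowest p among called genes that averaged 5 CPM or more, predicted names aside, Elavl1 and its paralogs, the 4 lowest in p of each list described, and for the difference between RNA types the 10 called genes of lowest p. The rule for the largest changes was applied again without knockout 6 after the data were seen. A few genes that the rule takes are not reported here. Mss51, Spns2 and Amd1 were chosen after their values were seen. The lists, their members and these choices were made with earlier results of these data known. Promoter sequences are from RefSeq and GRCm38.p6, not the build of the counts, and figures were drawn with matplotlib 3.10.9.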

Additional observations from a re-analysis of the deposited data

Results flagged for a closer look

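Within a group of 7 libraries, a single library lay far from the other 6 in 44 of 234 group and measure pairs looked at. Chance flags about 1 in 20 groups of independent values. These pairs are not independent, since many kidney genes repeat the same 2 libraries and genes were named partly for large changes. Knockout 6 had 2116 CPM of summed kidney transcripts, with 193 CPM in the next knockout. It was also apart from the other knockouts for Kap (713 CPM), Slc34a1 (293 CPM), Acsm2 (257 CPM), Spink1 and Cltrn (154 CPM each), Cyp2j5 (101 CPM), Lrp2 (92.7 CPM), Acy3 (86.8 CPM), Fut9 (81.6 CPM), Slc27a2 (58.9 CPM) and Dnase1 (39 CPM). Control 20 was apart from the other controls for much the same genes at lower levels. It had 217 CPM of summed kidney transcripts, with 61.6 CPM in the next control, and it held 66.9 CPM of Kap, 27.5 CPM each of Slc34a1 and Acsm2, 12.4 CPM of Cltrn, 8.03 CPM of Acy3, 7.83 CPM of Cyp2j5, 7.63 CPM of Lrp2, 7.43 CPM of Spink1, 7.23 CPM of Slc27a2 and 6.43 CPM of Fut9. Control 20 was also highest for the heat shock genes Hspa1a (381 CPM) and Hspa1b (425 CPM).

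Knockout 14 had 1128 CPM of summed liver transcripts, with 542 CPM in the next knockout, and was highest for Trf (214 CPM), Mup11 (129 CPM), Mup17 (37.5 CPM) and Cps1 (20.9 CPM), while its Acadl was lowest at 256 CPM. Knockout 12 was highest for Thbs4 (316 CPM), Tnmd (78.8 CPM) and Col12a1 (37.3 CPM), which are all genes of tendon and dense matrix. Knockout 10 was highest for Fkbp5 (53.8 CPM) and Gbp2 (51.7 CPM). Knockout 2 was highest for Cyp26b1 (419.6 CPM) and Foxo6 (28.6 CPM) and lowest for Elavl1 (51.4 CPM), where the next knockout held 82.3 CPM. Among the controls, control 25 was highest for Cyp26b1 (106 CPM), control 21 for Aen (12.8 CPM) and control 22 for mt-Tl2 (15 CPM), and control 27 was lowest for Col12a1 (6.62 CPM) and control 26 for mt-Nd5 (2315 CPM).

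In data outside the comparison of total RNA, the ribosomal library of male knockout 1 held 443 CPM of kidney transcripts, where the other ribosomal knockouts held up to 49.9 CPM and the ribosomal controls up to 31.2 CPM. The knockout effect differed between total and ribosomal RNA by the interaction test of edgeR for 10 named genes. The difference, total minus ribosomal on the log2 scale, was 1.58 for Il1r1, 1.49 for Ggh, 1.48 for Thbs4, 1.23 for Os9, 1.17 for Scpep1, 1.09 for Tanc1 and for Pam, −0.92 for 5031425E22Rik, −1.07 for Srek1 and −1.27 for Rock1.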

How the results depend on the processing

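The comparison of knockouts with controls gave 1824 calls. It gave 645 without the libraries with over 19% of reads outside genes, 762 with a fold change of at least 1.5 added, 898 without knockouts 6 and 14, 396 without controls 25 to 27 and 3824 without controls 20 to 23. The last 3 settings were chosen after the data were seen. The libraries over 19% were male controls 25 to 27, female control 14 and female knockout 9. Female libraries count here because the fit shares its estimate of the spread with them. With a single library left out the comparison of knockouts with controls gave 1134 (without control 27) to 2127 (without control 22). Without controls 20 to 23 the fold change turned for Saa1 (0.58), Ankrd1 (0.30), Socs3 (0.48), Ccl2 (1.48) and Csrp3 (0.43). The difference between the sexes gave 0 calls, but 8 with DESeq2 and 3 without the libraries with over 19% of reads outside genes. The difference between RNA types gave 16 calls, but 45 with DESeq2, 37 with limma-voom, 7 without the libraries with over 19% of reads outside genes and 27 without ribosomal libraries under 0.75 M counts. The cause of these shifts was not tested. No paired analysis was possible because knockouts and controls share no mouse numbers. Total and ribosomal libraries do share them, and the replicate block gave 10 calls for the difference between RNA types. Same-numbered libraries correlated with r of −0.386 to 0.205 (over 0.1 in 2 of 14 pairs), and 3 of 14 libraries correlated best with their own number, so the block is not used in the report. Of 196 called named genes, 126 were called with every single library left out. Of 7194 alternative values of named genes, 6154 kept their direction and call, 837 lost the call, 198 gained it and 5 turned. Counts of a few CPM, as for Cps1 or Mup17, rest on few reads a library.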
